A study of Mus musculus with 18 samples.

Results

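Gm12678, Irak1bp1 and Timd2 are 3 autosomal genes of mouse B cells, chosen by their measured read counts, low in naive cells and high after 24 h of CpG, in count tables of 40327 genes for the 129 allele and 39147 for the Cast allele. Irak1bp1 and Timd2 had a named row in both sets of tables, and Gm12678 had one in the Cast tables alone. The samples were CD23+ B cells from the spleen of female F1 hybrids of 129S1 and Cast mice. CD23 is a surface receptor of mature follicular B cells. All of the mice carried the genotype Xist+/-, so naive and stimulated cells alike came from animals in which, per the labels, the Cast X chromosome is the inactive one. The naive group (n = 3) received no treatment, and the stimulated group (n = 3) was treated in vitro with 1 µM CpG for 24 h. The labels do not say whether samples of 1 group came from separate animals, so the p-values below measure the spread between these samples only. A further 12 samples of the series, B cells and ear fibroblasts of F1 hybrids of B6 and Cast mice, are not analysed here.

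Gene counts summed to between 1987266 and 3321753 per table, and the autosomal Cast share of reads lay between 51.95% and 53.6% in every sample. Xist had 586 to 922 reads per sample in the 129 tables and 4613 to 6930 in the Cast tables. The 6 B cell markers summed to between 6380 and 8130 CPM (the reads of a gene scaled to the same total in every table) in naive samples and to between 2280 and 2770 CPM after CpG. All 8 macrophage markers had reads in naive samples, where they summed to between 1370 and 3340 CPM, against 4.16 to 4.37 CPM after CpG. The 6 T cell markers summed to at most 51.9 CPM in naive and 5.51 CPM in stimulated samples.

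CpG DNA is sensed in the endosome by the Toll-like receptor Tlr9, which signals through the adaptor Myd88 and the IRAK kinases to NF-kB. Irak1bp1 encodes a protein that binds the kinase Irak1 and has been studied as a helper of NF-kB. Timd2 encodes TIM-2, a membrane protein of the TIM family that takes up the iron storage protein H-ferritin and is known from B cells and T helper cells. Gm12678 is annotated as a long intergenic noncoding RNA and no function is stated for it here. The members have unrelated products, and what they share is the pattern by which they were picked.

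In GENCODE M21 (build GRCm38) Gm12678 lies on the plus strand of chromosome 4 from 44943753 to 44948330, Irak1bp1 on the plus strand of chromosome 9 from 82829540 to 82847687, and Timd2 on the minus strand of chromosome 11 from 46668960 to 46707061. No other annotated gene overlapped any of the 3. The deposited counts were made on strain annotations, so these positions serve to show where the genes are and which genes lie beside them. The 250 bases before a RefSeq gene start (build GRCm38.p6) are shown for Gm12678 (chr4:44943483-44943732, plus strand) and for the outer start of Timd2 (chr11:46707105-46707354, minus strand). The members were picked for the same rise, and shared control of them was not tested. For Irak1bp1 a stretch of 30 bases is shown (chr9:82829772-82829801, plus strand), since 1 GENCODE transcript starts upstream of it. Capitals mark a motif match.
Gm12678: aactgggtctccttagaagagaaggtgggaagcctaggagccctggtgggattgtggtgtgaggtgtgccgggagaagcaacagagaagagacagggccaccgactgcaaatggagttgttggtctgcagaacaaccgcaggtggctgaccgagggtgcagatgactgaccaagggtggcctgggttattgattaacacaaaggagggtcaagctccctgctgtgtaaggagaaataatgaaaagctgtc
Irak1bp1: agaacgactggtCACGTGgaaggcccgtga
Timd2: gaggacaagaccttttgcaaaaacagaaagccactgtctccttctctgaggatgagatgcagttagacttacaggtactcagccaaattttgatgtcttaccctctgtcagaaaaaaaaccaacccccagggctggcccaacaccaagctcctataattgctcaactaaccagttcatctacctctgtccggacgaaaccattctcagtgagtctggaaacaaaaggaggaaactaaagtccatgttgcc

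The motifs searched on both strands of these windows numbered 7 and were chosen with the rises known. They were CACGTG, the core that Myc and related factors bind, then the AP-1 site TGANTCA, the TATA box TATAAA, the CREB site TGACGTCA, the NF-kB motif, a repeat of the interferon response core and a repeat of the ETS core. One match was found, a CACGTG that begins 22 bases before the RefSeq start of Irak1bp1. The whole Irak1bp1 window (chr9:82829556-82829805) lies after the GENCODE start at 82829540, so within the annotated gene. The CACGTG motif was present in 6.02% of 32841 windows of the same length before mouse genes. The others, in the order above, were present in 6.75%, 12.4%, 1.55%, 7.25%, 2.98% and 2.79%. The Gm12678 and Timd2 windows held no match. Per window, 17 CG dinucleotides stood before the RefSeq start of Irak1bp1, 4 before that of Gm12678 and 2 before that of Timd2. The median over all windows was 6.

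Gm12678, the noncoding gene, was the nearest to silent. Its row in the Cast tables held 1, 0 and 0 naive reads and 435, 486 and 430 stimulated reads. The groups were far apart, and the stimulated samples differed little from each other, with a coefficient of variation of 6.11% in CPM. The stimulated level was 138 ± 8.46 CPM (SD, n = 3), at least 121-fold higher than a floor of 3 reads per naive library. The 129 tables have no row named Gm12678. They hold an unnamed chromosome 4 gene, MGP_129S1SvImJ_G0006416, whose row stands between the rows of Gm26881 and Gm829, as the Gm12678 row does in the Cast tables. That gene had 0, 3 and 1 reads in naive and 721, 647 and 615 in stimulated samples. No file pairs it with a name, so it was not counted as the 129 allele of Gm12678, and no allele ratio is given.

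Irak1bp1, the gene of the IRAK1-binding protein, was low in naive cells on both alleles but had reads in every library. In the Cast tables it had 18, 12 and 10 reads in naive and 1187, 995 and 1203 in stimulated samples. In the 129 tables it had 5, 2 and 1 reads in naive and 81, 71 and 91 in stimulated samples. Every stimulated sample stood above every naive sample on both alleles. In CPM the Cast allele went from 5.06 ± 1.42 to 347 ± 42.5 and the 129 allele from 1.16 ± 0.853 to 28.3 ± 3.84 (SD, n = 3). The log2 fold change was 6.06 (SE 0.20) in the Cast tables and 4.54 (SE 0.43) in the 129 tables. The 129 value rests on few naive reads, and without naive replicate 1 it was 5.31.

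Timd2, which encodes the ferritin receptor TIM-2, went against the label of a silent gene. The Cast tables held 91, 72 and 71 reads in naive and 1323, 1302 and 1341 in stimulated samples. The 129 tables held 29, 36 and 24 reads in naive and 717, 741 and 465 in stimulated samples. Naive levels were thus measurable on both alleles, at 29.8 ± 3.66 CPM for Cast and 13.2 ± 1.72 CPM for 129, and stimulated levels were 407 ± 16.3 and 224 ± 52.6 CPM (SD, n = 3). The log2 fold change was 3.74 (SE 0.14) for the Cast and 4.10 (SE 0.24) for the 129 allele. The stimulated samples varied more on the 129 allele, with a coefficient of variation of 23.5% against 4.0% on the Cast allele, and stimulated replicate 3 was the low one.

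These rises were what the genes were chosen for and carry no test here. Over all genes, edgeR's threshold for a CpG response was passed by 55.2% of those tested on 129 reads and 62.2% on Cast reads. In bulk RNA, more cells that express a gene and more RNA per cell cannot be told apart. The macrophage markers named above fell with stimulation while the members rose, and their part in the members' values was not tested.

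**Figure D1:**
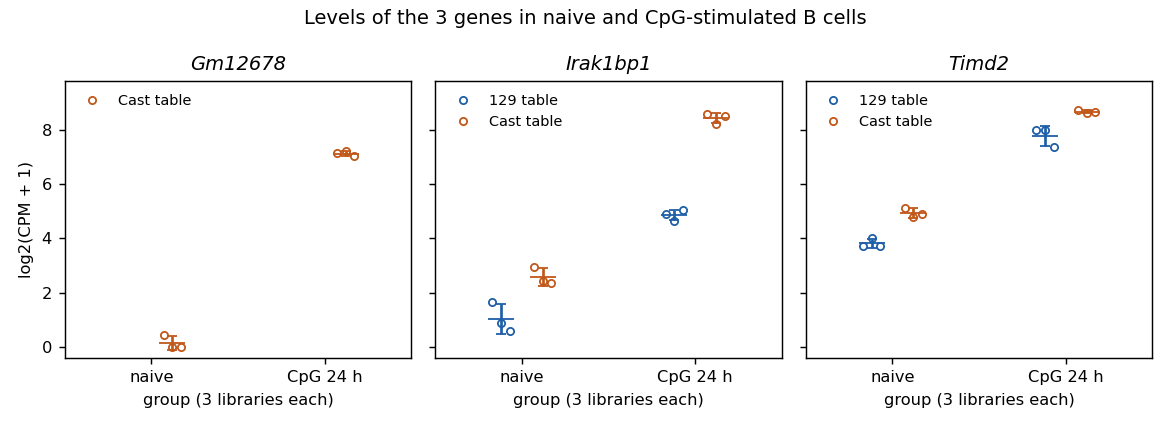
Level of each gene on a log2(CPM + 1) scale in naive and CpG-stimulated B cells. Open circles are the 3 libraries of a group in the 129 (blue) and Cast (orange) tables, and bars give mean and SD. Gm12678 starts near 0, Irak1bp1 low and Timd2 well above 0, and the groups do not overlap in any panel.

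The count limits that describe a switch from silent to on placed 1 of the 3 members inside them. With at most 3 reads in every naive library and at least 30 in every stimulated library, 31 genes qualified by their 129 reads and 37 by their Cast reads. Gm12678 was among the 37. Irak1bp1 missed the naive limit in both tables, with 5 reads in its highest naive library on the 129 allele and 18 on the Cast allele. Timd2 missed it with 36 and 91 reads. The 2 lists shared 9 genes, which is 29.0% of the 129 list and 24.3% of the Cast list. Of the 31 and 37 genes, 26 and 33 were matched by name and chromosome between the strains. The rest, Gm12678 among them, could not be shared. These counts depend on the limits and the libraries: other read limits gave 9 to 103 genes on the 129 allele and 7 to 109 on the Cast allele, and without naive replicate 2 the 129 count was 54.

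Of the 9 genes near 0 and then high on both alleles, 8 are annotated as protein-coding and 1, Gm12576, as a long noncoding RNA. Il33, an alarmin cytokine, had 73, 83 and 58 stimulated reads on the 129 allele and 32, 50 and 43 on the Cast allele. Tnip3, an inhibitor of NF-kB signalling, had 128, 98 and 131 and then 75, 74 and 55. Gfi1b, a transcriptional repressor of blood development, had 109, 104 and 94 and then 39, 46 and 67. Among the others were 1110032F04Rik, Zfp811, Lrrc49 and Pycr1, a proline synthesis enzyme, with 302 to 896 stimulated reads over both alleles.

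The allele that gave the reads was not part of the choice, so it could be tested. A gene with equal output from both alleles, and with reads counted alike in both strains, would have about the autosomal share. The allele test set the reads against an equal split and not against that share. In stimulated samples the Cast share of Irak1bp1 was 93.6% (95% Wilson interval 92.1 to 94.8), 93.3% (91.7 to 94.7) and 93.0% (91.4 to 94.2), on 1066 to 1294 reads. The mean was 93.3% ± 0.324 (SD, n = 3), and the 3 samples lay within each other's intervals. The ratio of Cast to 129 reads was 13.9, a log2 ratio of 3.80 (SE 0.08, edgeR adjusted p = 7.47e-05), toward Cast in 3 of 3 samples. Over 9405 genes tested the same way the median log2 ratio was 0.10, and 23.8% were called, 13.1% toward Cast and 10.7% toward 129. A log2 ratio as high as that of Irak1bp1 was reached by 144 of the 9405 genes, or 1.53%. Counting both directions, 406 genes had a log2 ratio at least as large in size.

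Timd2 was also read more from Cast, by less. Its Cast share after CpG was 64.9% (62.8 to 66.9), 63.7% (61.6 to 65.8) and 74.3% (72.2 to 76.2), a mean of 67.6% ± 5.78 (SD, n = 3). Replicate 3 stood apart from the others, with intervals that did not touch. The log2 ratio was 1.07 (SE 0.17, edgeR adjusted p = 0.0209), higher from Cast in 3 of 3 samples. The call did not hold without stimulated replicate 1 (edgeR adjusted p = 0.075) or replicate 2 (0.0828), and it held without replicate 3 (0.00633). How reads were assigned to a strain is not given in the sources used here, and the same test called 23.8% of all genes. The part of read assignment in these ratios was not tested.

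In naive samples the Irak1bp1 share was 78.3% (58.1 to 90.3), 85.7% (60.1 to 96.0) and 90.9% (62.3 to 98.4), on 11 to 23 reads. The interval of naive replicate 1 lay below those of the 3 stimulated samples, and the intervals of naive replicates 2 and 3 overlapped them. The naive Timd2 share was 75.8% (67.4 to 82.6), 66.7% (57.3 to 74.8) and 74.7% (65.2 to 82.4), with a mean of 72.4% ± 5.01 against 67.6% ± 5.78 after CpG (SD, n = 3). The Timd2 groups overlapped. A change of the share with stimulation was not tested, because it is made from the contrast that chose the genes.

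**Figure D2:**
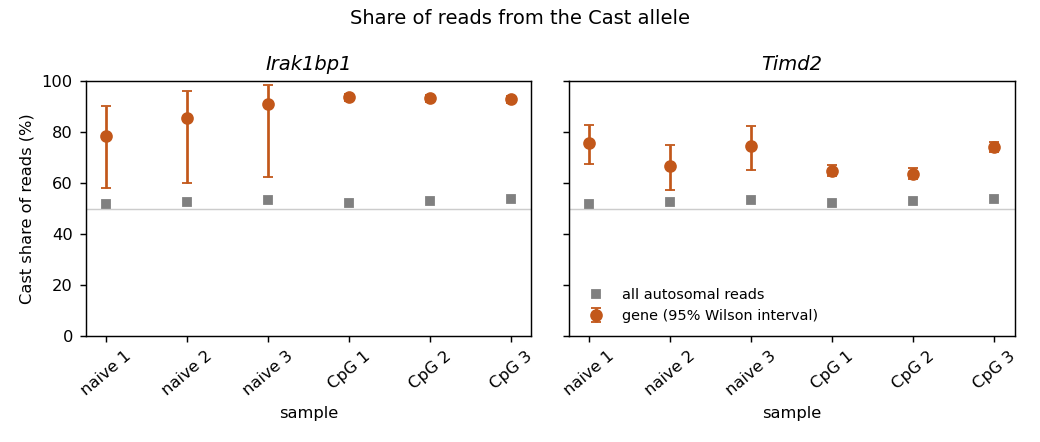
Cast share of reads in each of the 6 samples for Irak1bp1 and Timd2. Orange points carry 95% Wilson intervals, which cover counting error only, and grey squares give the share of all autosomal reads. Irak1bp1 sits at 93.0% to 93.6% after CpG and Timd2 at 63.7% to 74.3%, above the autosomal share in each sample.

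**Figure D3:**
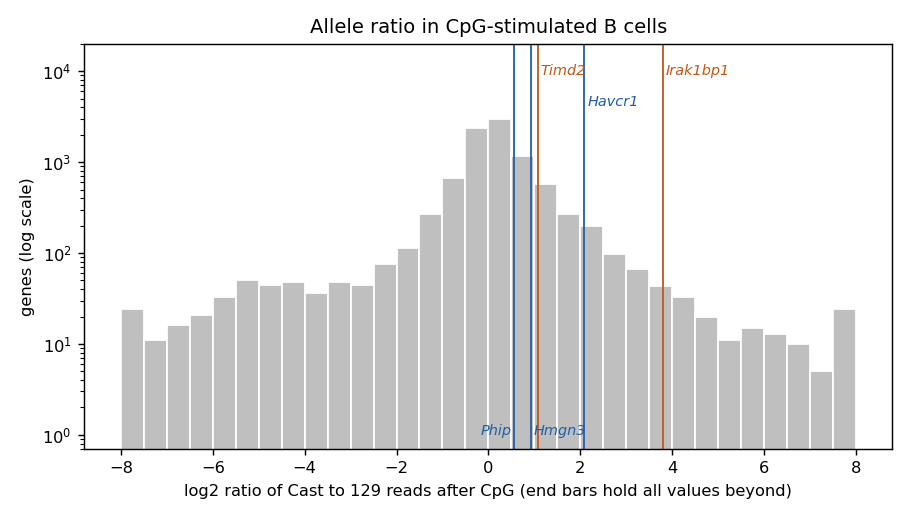
Distribution of the log2 ratio of Cast to 129 reads over 9405 genes in stimulated B cells, with the number of genes on a log axis. Orange lines mark Timd2 (1.07) and Irak1bp1 (3.80), and blue lines mark the neighbouring genes Phip, Hmgn3 and Havcr1. The end bars hold all values beyond the axis.

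Neighbours on the chromosome were taken as the 5 annotated genes with a row in the tables on each side of a member. Of these 30 genes, 11 were tested on the 129 allele, with 5 called higher and 4 lower after CpG, and 11 on the Cast allele, with 4 higher and 4 lower. Over all genes 28.2% were called higher and 27.0% lower on the 129 allele, and 30.7% and 31.5% on the Cast allele. Many of the other neighbours are small RNA genes or predicted genes with no reads. In the allele test 10 were tested, 3 called toward Cast and 1 toward 129, beside 23.8% over all genes.

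Around Gm12678, 6 neighbours were tested on the 129 allele, where 2 rose and 3 fell, and 5 on the Cast allele, where 1 rose and 3 fell. Zcchc7, a cofactor of the nuclear RNA exosome 11.5 kb before it, fell by 0.90 on the log2 scale on the 129 allele (SE 0.15, edgeR adjusted p = 0.00157), and its log2 fold change on the Cast allele was -1.35 (SE 0.17, adjusted p = 1.07e-04). Its reads went from 355, 500 and 386 to 290, 289 and 256 on the 129 allele. Pax5, the transcription factor that keeps B cell identity, lies 233 kb away and had log2 fold changes of -0.54 on the 129 allele (edgeR adjusted p = 0.033) and -0.47 on the Cast allele (adjusted p = 0.0366). The Pax5 call was lost without naive replicate 2 or without any 1 of the stimulated replicates, with edgeR adjusted p from 0.0518 to 0.104 on the 129 allele and from 0.0672 to 0.139 on the Cast allele. Mir5120, a microRNA gene within the span of Pax5, had 53, 90 and 49 reads in naive and 22, 14 and 20 in stimulated samples on the 129 allele. Its log2 fold changes were -2.09 on the 129 and -1.37 on the Cast allele (edgeR adjusted p = 0.00102 and 0.00178), and its reads cannot be told apart from those of unspliced Pax5.

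On the other side, Grhpr, a glyoxylate-reducing enzyme that starts 33.1 kb after Gm12678, rose by 1.09 on the 129 allele (edgeR adjusted p = 0.0105) and by 1.13 on the Cast allele (edgeR adjusted p = 0.00813). Gm12493, annotated as an antisense RNA 19.4 kb after Gm12678, had 26, 36 and 8 reads in naive and 89, 49 and 124 in stimulated samples on the 129 allele. It passed there (log2 fold change 1.60, edgeR adjusted p = 0.0312) and not on the Cast allele (adjusted p = 0.143), and with the replicate number as a block the 129 call was lost (adjusted p = 0.0606). It was also lost without naive replicate 1 or 3 or stimulated replicate 1 or 3 (edgeR adjusted p from 0.0546 to 0.0942), and on the Cast allele it passed without naive replicate 2 (0.0258). Gm12493 was read more from 129, with a log2 ratio of Cast to 129 of -1.64 (edgeR adjusted p = 0.0159, and 0.0749 without stimulated replicate 2). Zbtb5 had a row on the 129 allele alone, and its log2 difference of -0.24 did not pass (edgeR adjusted p = 0.197).

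Irak1bp1 has Phip as its nearest neighbour, 18.5 kb after it on the other strand. Phip, a bromodomain protein, was read in every sample, with 991, 1115 and 981 naive and 1519, 1232 and 1640 stimulated reads on the 129 allele. Its log2 difference of 0.17 did not pass on the 129 allele (edgeR adjusted p = 0.314), and neither did 0.28 on the Cast allele (adjusted p = 0.117), though the latter passed without stimulated replicate 2 (0.0205) and with every gene of at least 1 read (0.0407).

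Hmgn3, a nucleosome-binding protein 262 kb after Irak1bp1, rose from 24, 31 and 20 to 295, 301 and 225 reads on the 129 allele and from 85, 88 and 38 to 544, 526 and 477 on the Cast allele. On the 129 and Cast alleles its log2 fold changes were 3.12 (edgeR adjusted p = 2.53e-05) and 2.56 (adjusted p = 1.57e-05). Lca5, a ciliary protein gene 543 kb away, had log2 fold changes of 0.92 on the 129 allele (edgeR adjusted p = 0.033) and 0.15 on the Cast allele (adjusted p = 0.685). The Lca5 call was lost in 4 of the fits that left out a library, namely naive replicate 1 or 3 or stimulated replicate 1 or 2 (edgeR adjusted p from 0.072 to 0.11), and also with DESeq2 (0.0602) and with every gene of at least 1 read (0.0581). Mei4, a meiotic recombination gene 624 kb before Irak1bp1, rose by 1.63 on the Cast allele (edgeR adjusted p = 0.0186), on 3, 3 and 8 naive and 21, 17 and 18 stimulated reads. The Mei4 call was lost without naive replicate 1 or 2 or stimulated replicate 1 (edgeR adjusted p from 0.0604 to 0.0683).

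Both well-read neighbours of Irak1bp1 were called toward Cast as well. Phip had a Cast share of 59.7% ± 0.272 (SD, n = 3) and a log2 ratio of 0.57 (SE 0.05, edgeR adjusted p = 0.00179). Hmgn3 had a share of 65.5% ± 2.24 (SD, n = 3) and a log2 ratio of 0.92 (SE 0.09, edgeR adjusted p = 0.00319). Mei4 and Lca5 did not pass, with log2 ratios of -0.07 and -0.16 (edgeR adjusted p = 0.92 and 0.744). The difference between Irak1bp1 and its neighbours was not tested.

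Timd2 lies beside other genes of its own family. Havcr1, which encodes TIM-1, a receptor for phosphatidylserine on activated lymphocytes, starts 28.0 kb from it on the other strand. Havcr1 rose from 504, 504 and 359 to 1997, 2030 and 2173 reads on the Cast allele and from 124, 122 and 60 to 431, 477 and 552 on the 129 allele. Its log2 fold changes were 1.85 (SE 0.13, edgeR adjusted p = 3.14e-06) and 1.94 (SE 0.23, adjusted p = 2.90e-04). Like Timd2, Havcr1 was read more from Cast, with a share of 81.0% ± 1.25 (SD, n = 3) and a log2 ratio of 2.09 (SE 0.07, edgeR adjusted p = 2.00e-04). Timd2 and Havcr1 are related genes, and how reads that fit both were counted is not given in the sources used here.

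Timd4, the next TIM gene, 104 kb away, moved the other way. It encodes TIM-4, a receptor of tissue macrophages that binds dying cells. It had 237, 107 and 38 reads in naive and 0, 0 and 0 in stimulated samples on the 129 allele, at least 52.4-fold lower against a floor of 3 reads per library (edgeR adjusted p = 0.00695, and 0.0598 with every gene of at least 1 read). On the Cast allele it had 172, 82 and 186 reads and then 9, 4 and 7, and fell by 4.80 on the log2 scale (edgeR adjusted p = 2.26e-05). The remaining 8 neighbours of Timd2 had at most 4 reads in any library and were not tested.

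**Figure D4:**
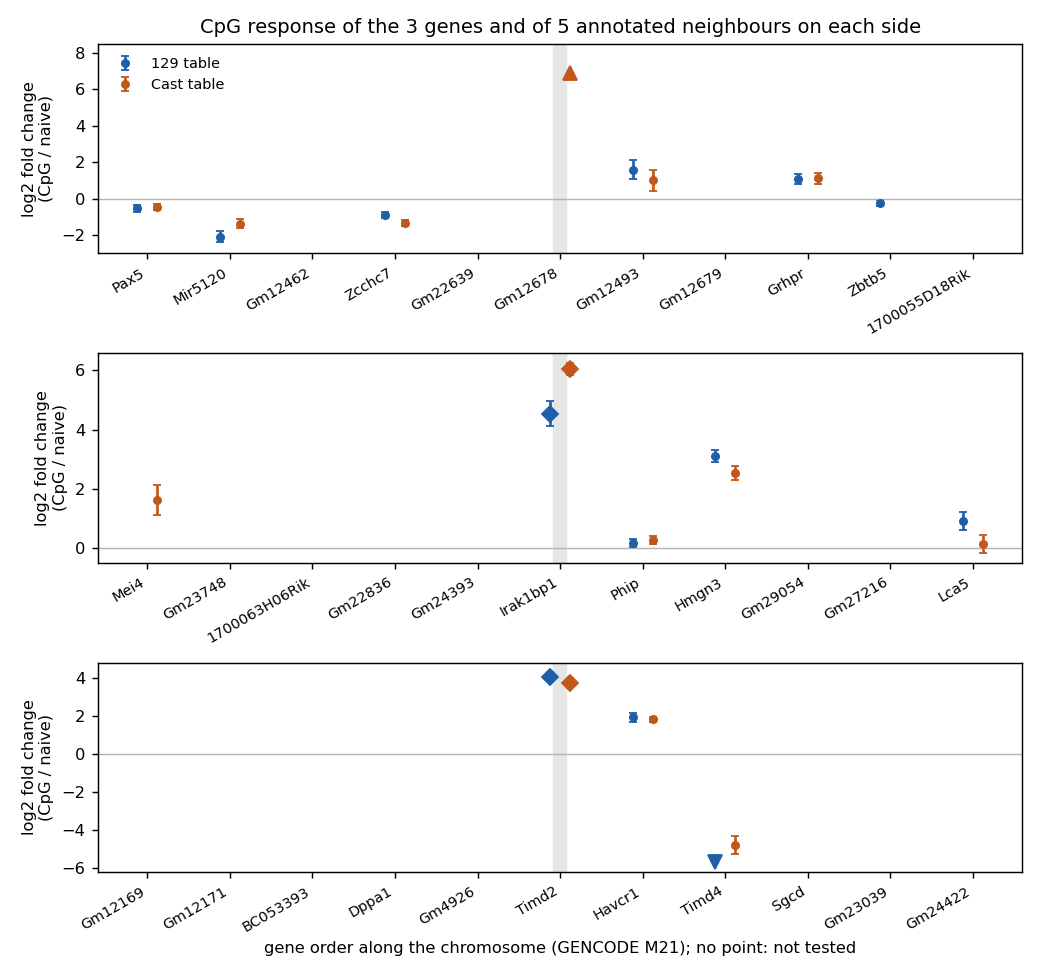
Log2 fold change of CpG-stimulated over naive samples for each member (diamonds) and its tested neighbours (circles, with standard errors), in gene order. Triangles mark bounds computed against a floor of 3 reads per library, upward for Gm12678 and downward for Timd4. Hmgn3 and Havcr1 rise on both alleles, and Zcchc7 and Timd4 fall on both.

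Of 5 TIM system genes besides Timd2 (3 family members and the TIM-2 ligands Sema4a and H-ferritin), 4 were tested per allele. Havcr1 rose and Timd4, Havcr2 and Fth1 fell on both alleles, beside 55.2% and 62.2% called over all genes. Their median log2 fold change was -4.38 on the 129 allele, or -3.05 with genes at their bound, and -3.38 on the Cast allele, against -0.01 and -0.04 for all tested genes. Havcr2, which encodes TIM-3, was lower by at least 23.3-fold (129) and 40.9-fold (Cast). Fth1, the heavy chain of ferritin, had log2 fold changes of -1.55 (SE 0.19, edgeR adjusted p = 3.70e-04) and -1.97 (SE 0.15, adjusted p = 5.49e-06) on the 129 and Cast alleles, with 157, 128 and 142 naive and 69, 55 and 60 stimulated reads on the 129 allele. Sema4a had at most 9 reads in any library. Timd4 and Havcr2 moved with the macrophage markers, which summed to between 1370 and 3340 CPM in naive and 4.16 to 4.37 CPM in stimulated samples. The part of macrophages in these falls was not tested.

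Among 12 genes of iron uptake and storage, 9 were tested in each set of tables. On the 129 allele 2 rose and 3 fell, and on the Cast allele 3 rose and 4 fell, beside 55.2% and 62.2% called over all genes. Blocked by replicate number, the 129 count was 2 and 4, since Slc25a37, a mitochondrial iron importer, then passed (edgeR adjusted p = 3.71e-08 against 0.0539). In the replicates numbered 2 its reads were low on the 129 allele and high on the Cast allele, with 303 and 974 naive reads. The median log2 fold change of the list was 0.00 on the 129 and 0.29 on the Cast allele.

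Tfrc, the transferrin receptor that brings iron into dividing cells, rose by 2.52 (SE 0.22, edgeR adjusted p = 7.73e-05) and 2.54 (SE 0.25, adjusted p = 2.67e-05), with 99, 109 and 113 naive and 879, 562 and 900 stimulated reads on the 129 allele. Aco1, an iron sensor that binds messenger RNA when iron is low, rose by 0.60 on the 129 allele (edgeR adjusted p = 0.00471) and by 0.48 on the Cast allele (adjusted p = 0.0147, and 0.0504 without stimulated replicate 1). Steap3, an iron reductase, rose by 1.09 on the Cast allele (edgeR adjusted p = 0.0176, 0.0502 without naive replicate 3 and 0.0619 without stimulated replicate 2, and 0.145 on the 129 allele), and the alleles were not compared. Slc40a1, the iron exporter ferroportin, was at least 578-fold and at least 630-fold lower, and Hmox1, which frees iron from heme, had log2 fold changes of -5.06 and -4.81 (edgeR adjusted p = 1.88e-04 and 8.35e-06). Both are abundant in macrophages of the spleen, whose markers fell as given above. The part of macrophages in the falls of Slc40a1 and Hmox1 was not tested.

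Of the 17 other genes of the Irak1 and Toll-like receptor chain, 14 were tested in each set of tables. On the 129 allele 1 rose and 3 fell, and on the Cast allele 1 rose and 4 fell, beside 55.2% and 62.2% over all genes. Their median log2 fold change was -0.25 in both. Map3k7, the kinase TAK1, rose by 0.50 (edgeR adjusted p = 0.00983) and 0.46 (adjusted p = 0.00644). Unc93b1, the chaperone that carries Tlr9 to endosomes, had log2 fold changes of -1.18 (edgeR adjusted p = 1.13e-04) and -1.29 (adjusted p = 1.51e-05). The kinase Irak4 had -1.05 (edgeR adjusted p = 7.78e-04) and -0.69 (adjusted p = 6.47e-04).

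Irak1, the kinase after which Irak1bp1 is named, is X-linked and did not pass on either allele, with a log2 fold change of 0.17 on the 129 allele (edgeR adjusted p = 0.459) and -0.22 on the Cast allele (adjusted p = 0.479). It had 200 to 377 reads per sample on the 129 allele and 41 to 65 on the Cast allele, which lies on the inactive X chromosome. Tab2, a TAK1 adaptor, fell by 0.55 on the 129 allele (edgeR adjusted p = 0.0199), a call lost without naive replicate 1 (0.0712), naive replicate 3 (0.0526) or stimulated replicate 2 (0.055). Rela, the p65 subunit of NF-kB, fell by 0.45 on the Cast allele (edgeR adjusted p = 0.0382), a call lost in the 5 fits without naive replicate 1, 2 or 3 or stimulated replicate 2 or 3 (0.0741 to 0.143), with DESeq2 (0.07) and with every gene of at least 1 read (0.148).

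Tlr9 itself fell by 1.36 on the Cast allele (edgeR adjusted p = 0.00612, and 0.0765 with every gene of at least 1 read). In the Cast tables it had 284, 291 and 115 naive and 134, 127 and 71 stimulated reads, low in both replicates numbered 3. In the 129 tables it had 38, 29 and 192 naive and 18, 16 and 155 stimulated reads, high in both replicates numbered 3. Its log2 difference of -0.90 there did not pass (edgeR adjusted p = 0.569). With the replicate number as a block it passed (adjusted p = 0.00126), as did Rela in those tables (0.0126 against 0.051), so that 1 rose and 5 fell. The alleles of Tlr9 thus differed between replicates in opposite directions, and the part of this in its calls was not tested.

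The genes with levels most like those of a member were found by the root mean square difference of log2(CPM + 1) over the 6 samples. Among the nearest to Gm12678, on the Cast allele, were Ccl3 (0.733), a chemokine, and Aunip (0.918), and 5 named genes lay within 1 log2 unit. Nearest to Irak1bp1, over both alleles, were Cdc6 (0.526), which licenses DNA replication, Bub1b (0.578), a spindle checkpoint kinase, and Esco2 (0.598), a cohesin acetyltransferase, with 57 genes within 1 unit. Nearest to Timd2 were Chaf1b (0.289), a histone chaperone subunit, Hk2 (0.353), a glycolytic hexokinase, and Ctps (0.357), a CTP synthase, with 150 genes within 1 unit. The measure uses read levels not scaled by gene length and describes these 6 samples.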

How the data were processed

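RNA was extracted with TRIzol and libraries were made with a stranded total RNA kit, per the labels' protocols. STAR, featureCounts and Subread 2.0.0 and the build mm10 are named in the submitters' processing notes. The authors deposited raw read counts per gene in 12 tables, 1 per sample and strain annotation, with 5 summary rows of the kind htseq-count writes. How a read was given to a strain, and whether strand was used, is not given in the sources used here. Summary rows were left out of library sizes. Of the reads counted in a gene, in no gene or as ambiguous, 44.5% to 67.1% lay in no gene. Genes without a name took 5.10% to 19.7% of counts.

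The 3 members and all lists were chosen with earlier results of these data known. The 129 and the Cast counts were each fitted for the CpG response by edgeR 4.0.16 under R 4.3.3 (quasi-likelihood, robust, TMM, filterByExpr, Benjamini-Hochberg at 0.05), over 10581 genes (129) and 10365 (Cast). The allele term was tested in the 3 stimulated samples over 9405 genes matched by name and chromosome with at least 10 reads over both alleles, with a term for the sample and 1 library size for both alleles. Standard errors come from the F statistic. Tests were checked on simulated data. In that check the CpG fits missed many of the smaller changes, and the 129 CpG fit made false calls at a rate above the threshold. Alternatives were DESeq2 1.42.0, other normalization and filters, a replicate block and leaving out each library. Deviations of same-numbered samples correlated at 0.163 to 0.608. The numbers from the titles were therefore used to pair the samples, in the alternative with a replicate block only. The main CpG fits held no term for this pairing, and p-values of the CpG response leave it out unless a block is named. The block called 6884 (129) and 6868 (Cast) genes, against 5842 and 6445 in the main fits. No libraries of a group agreed within sampling noise (chi-square of 5.96 to 15.7 per degree of freedom). Levels are CPM of each table's gene total. Intervals and floors cover counting error only. Named genes are the members, their 5 neighbours on each side, the 3 most alike genes per member, genes near 0 then high on both alleles, and list genes past the threshold. One gene that this rule names is not reported here. The NK cell markers summed to at most 1.80 CPM, neutrophil markers to at most 17.3 and erythroid markers to at most 61.8, while plasma cell markers summed to 195 to 345 CPM in naive and 241 to 272 in stimulated samples. The deposited list of escape genes holds none of the members and was not used.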

Additional observations from a re-analysis of the deposited data

How the results depend on the processing

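The direction of the members' log2 fold changes was fixed by the choice of genes. Across the alternatives Irak1bp1 lay at 4.23 to 5.31 (129) and 5.97 to 6.34 (Cast), and Timd2 at 3.98 to 4.30 and 3.67 to 3.88. The fitted value of Gm12678, which rests on 1 naive read, lay at 9.18 to 11.70. Counts of called genes ranged from 5216 to 6884 in the 129 tables and from 5987 to 7196 in the Cast tables. The replicate block gave 6884 and 6868 calls and changed, among the genes named, the calls given beside them and no other. The allele test called 1272 to 2094 genes when 1 stimulated sample was left out (2239 with all), with the low value without replicate 2, and 2328 with no replicate block. The log2 ratio of Timd2 ranged from 0.85 to 1.20 when 1 sample was left out, losing its call in 2 of the 3 fits, and that of Irak1bp1 from 3.76 to 3.84. Division by each table's own total moved the mean Cast share in stimulated samples from 93.3% to 92.5% for Irak1bp1 and from 67.6% to 64.9% for Timd2. Counts near 0 then high depended on the read limits by construction. A naive limit of 1 or 5 reads gave 11 and 59 genes (129) and 13 and 61 (Cast), and a stimulated limit of 10 or 100 reads gave 103 and 9 (129) and 109 and 7 (Cast). Without 1 library, chosen later as an alternative, these counts were 35 to 54 (129, the highest without naive replicate 2) and 38 to 54 (Cast). With 10 neighbours on each side 15 were called in each set of tables, and with 3 on each side 6 (129) and 5 (Cast). With every gene of at least 1 read, also added later, 3 genes of the Irak1 chain were called in the Cast tables. Naive Irak1bp1 and Gm12678 reads are too few for an allele ratio or a fold change with a narrow error.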
